A study of Mus musculus with 394 samples.

Results

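Dopaminergic synaptosomes sorted from mouse striatum by fluorescence were compared with all small particles sorted from the same striatal preparations. A synaptosome is a nerve terminal that pinches off and reseals when brain tissue is homogenised, and fluorescence-activated synaptosome sorting (FASS) passes such particles through a flow sorter and keeps the fluorescent ones. The members were chosen by the labels alone: the 6 DAT:EGFP FASS samples of striatal synaptosomes and the 6 DAT:EGFP small particle samples, 1 pair from each of 6 preparations. Each small particle sample was deposited as 3 technical repeats, so the comparison rests on 6 FASS libraries and 18 small particle libraries out of 394 samples in the series. The mice were heterozygous DAT-Cre animals of either sex, labelled as postnatal day 90 to 150, in which Cre recombinase is made under the control of the dopamine transporter gene. An adeno-associated virus carrying Cre-dependent EGFP had been injected into the midbrain, and several mice were used in a sorting experiment. The mark on a particle is therefore EGFP made by infected, Cre-expressing neurons. The paper reports that, on reanalysis, only part of the particles in the sorted samples carried EGFP. FASS values thus include particles without the mark. Both fractions shared the genotype, the virus, the gradient purification and the gate on small single particles, and in the sorting they differed in the gate on EGFP. They also differed in the number of libraries, 6 against 18, and in the depth of those libraries. Sorts of VGlut1 VENUS particles from striatum (3 preparations) and cortex (3 preparations), in which glutamatergic terminals carry the fluorescent tag, served for comparison.

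Midbrain dopamine neurons send long, finely branched axons into the striatum, where varicosities along the axon release dopamine beside the dendrites of spiny projection neurons. Some messenger RNAs are carried into axons and translated there, while fine processes of astrocytes and the dendrites of postsynaptic cells carry transcripts of their own and remain attached to terminals when tissue is homogenised. The transcripts of a sorted synaptosome can thus come from the terminal, from material stuck to it, or from free RNA in the suspension. In these pooled particles, fewer particles of a kind and less RNA per particle cannot be told apart.

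The transcripts that define dopamine neurons were almost absent from the sorted particles. Tyrosine hydroxylase (*Th*), which makes the dopamine precursor, had 1 UMI (unique molecular identifier, a tag that counts each captured molecule once), in FASS preparation 1, and 2 UMIs in the small particles, both in preparation 4. The dopamine transporter gene *Slc6a3*, whose regulatory sequence drives the Cre transgene in these mice, had 1 UMI, in FASS preparation 3, and 0 in the small particles. *Ddc*, the decarboxylase that completes dopamine, and *Slc18a2*, the vesicular monoamine transporter, had 0 UMIs in FASS against 3 and 4 in the small particles. Together these 4 genes gave 2 of 131098 FASS UMIs, or 15.3 CPM (UMIs scaled to a common library total; exact 95% Poisson interval 1.85 to 55.1), and 9 of 995050 small particle UMIs, or 9.04 CPM (4.14 to 17.2). The intervals overlap, and they cover counting error only. A gene at 0 in all FASS libraries could still lie at up to 22.9 CPM (3 UMIs in the FASS total), and a gene at 0 in the small particles at up to 3.01 CPM. Over a wider list of 20 dopamine neuron genes, the FASS libraries held 18 UMIs with 14 genes at 0, and the small particles 126 UMIs with 6 genes at 0. Of these UMIs, 11 and 82 belonged to *Aldh1a1*, a retinaldehyde dehydrogenase, at 83.9 and 82.4 CPM, and 2 of the 20 genes passed the filter for testing.

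Other cells were represented to very different degrees. All 22 astrocyte genes on the list, all 15 oligodendrocyte genes, all 15 microglial genes and all 16 genes of striatal spiny neurons passed the filter of 10 UMIs over the 12 samples. None of the 13 endothelial and mural genes did (12 UMIs in FASS, 41 in small particles). Red blood cell genes gave 7 and 50 UMIs, and choroid plexus genes 22 and 152. The filter sums both fractions. In the FASS libraries alone, the astrocyte, oligodendrocyte, microglial and spiny neuron lists held 3110, 937, 1273 and 463 UMIs. The 20 dopamine neuron genes held 18.

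The sorted libraries were shallow. FASS libraries held 13072 to 33833 UMIs, with a median of 20086, and single small particle repeats held 22978 to 103477, with a median of 50663. Within each preparation the mean of the 3 repeats exceeded the FASS library, by 3.29-, 4.83-, 3.44-, 1.41-, 1.11- and 2.80-fold in preparations 1 to 6. The FASS total was on average 0.401 of the small particle total, lower in 6 of 6 preparations (exact paired permutation test, two-sided, p = 0.03125, the smallest that 6 pairs can give). The number of particles sorted into each sample was not used here, so these totals are not yields per particle. At an equal 13072 UMIs, FASS samples held 3155 ± 302 genes (SD, n = 6; 2646 to 3450) and small particles 3728 ± 302 (3308 to 4151). FASS was lower in 5 of 6 preparations, and this difference did not pass the test (exact paired permutation p = 0.0625; p = 0.0108 without the pairing). Over the whole table, 10562 of 48531 genes had a UMI in FASS and 19459 in small particles, and a tested gene had a median of 3 UMIs over the FASS libraries and 28 over the small particles.

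**Figure D1:**
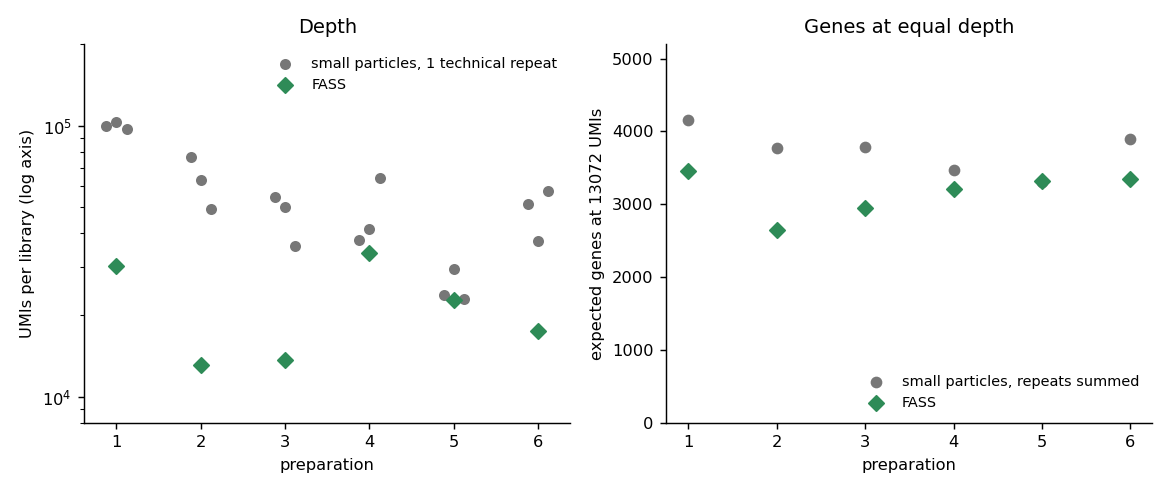
UMIs per library on a log axis (left; diamonds are FASS libraries, grey points the 3 small particle repeats of each preparation) and genes expected at 13072 UMIs (right) for DAT:EGFP preparations 1 to 6. The FASS library lies below the mean of its repeats in every preparation, by 1.11-fold in preparation 5 and 4.83-fold in preparation 2.

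A large part of each sorted library came from a few features. *Dusp10* (a dual-specificity phosphatase) had a median of 135373 CPM in FASS and 62784 in small particles, and *Unc93b1* (a trafficking chaperone of Toll-like receptors) 61121 and 37899. Both overlapped between the fractions, and neither passed the test (edgeR quasi-likelihood, adjusted p = 0.26 and 0.951). Their joint share of UMIs was 8.38, 30.6, 24.0, 6.65, 20.1 and 21.1% in FASS preparations 1 to 6, against 5.66, 9.70, 7.66, 10.4, 19 and 12.6% in the small particles. It was higher in FASS in 5 of 6 preparations. The 2 mitochondrial ribosomal RNAs made up 12.4 ± 3.31% of FASS UMIs and 9.36 ± 2.82% of small particle UMIs (SD, n = 6 each).

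Messages of the ribosome and of the respiratory chain took a larger share of the sorted libraries, and messages of the synapse and the cytoskeleton a smaller one. Cytosolic ribosomal proteins held 11 ± 3.98% of FASS UMIs and 7.03 ± 1.46% of small particle UMIs (SD, n = 6), higher in FASS in 5 of 6 preparations. Their difference ranged from -0.293 points in preparation 2 to 8.69 points in preparation 4 (adjusted p = 0.147 over 11 classes, exact paired permutation test). Nuclear-encoded subunits of the respiratory chain and ATP synthase held 3.73 ± 1.25% against 2.27 ± 0.285%, higher in 6 of 6. Active zone messages held 0.0818 ± 0.0211% against 0.181 ± 0.0459%, and postsynaptic messages 0.259 ± 0.0645% against 0.529 ± 0.139%. Cytoskeletal messages held 0.787 ± 0.0770% against 1.28 ± 0.243%, and synaptic vesicle messages 0.261 ± 0.0485% against 0.350 ± 0.0734%. These 4 classes were lower in FASS in 6 of 6 preparations. With p = 0.03125 as the smallest value that 6 pairs allow, the respiratory chain, microglial and these 4 classes reached an adjusted p of 0.0573 and none passed 0.05. When UMIs of *Dusp10* and *Unc93b1* were left out of the total, a choice made after seeing the data, ribosomal proteins held 13.2 ± 3.60% against 7.85 ± 1.44%, higher in 6 of 6, and 7 of the 11 classes reached an adjusted p of 0.0491.

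**Figure D2:**
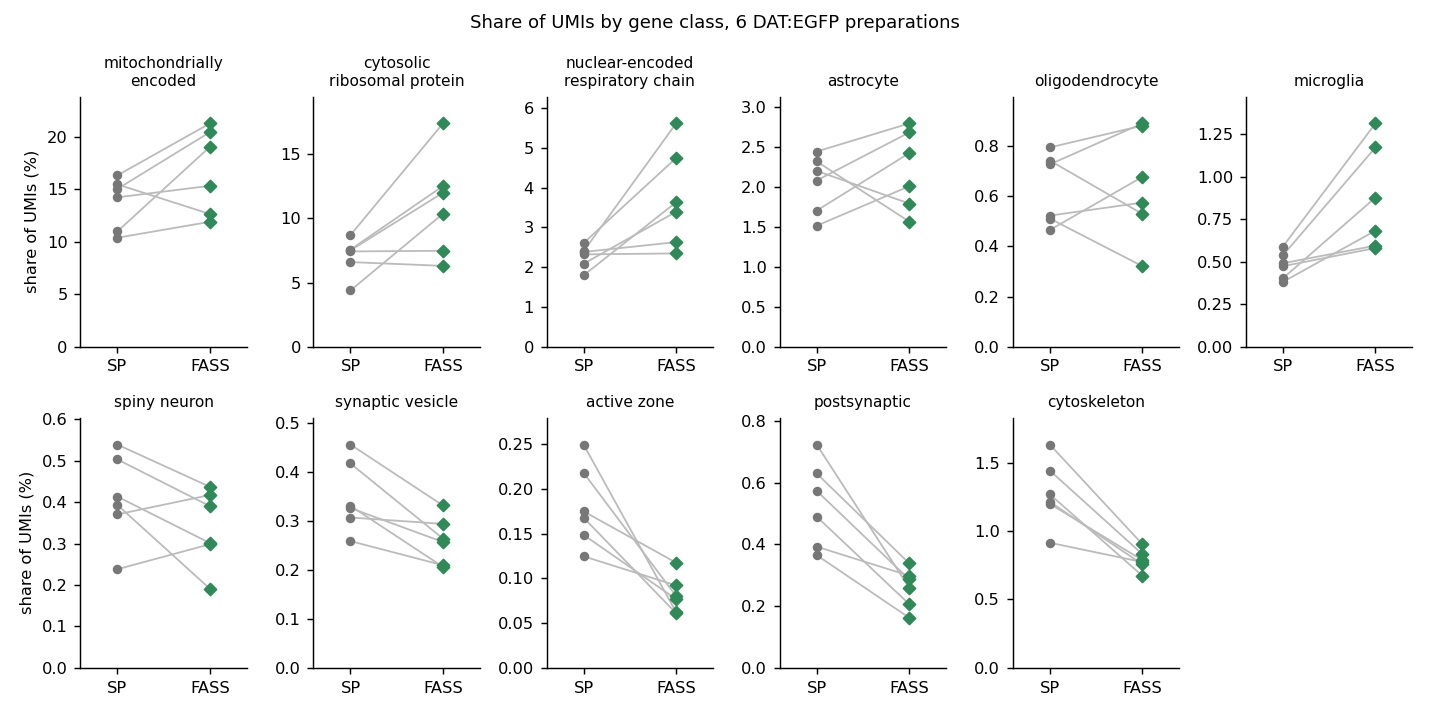
Percent of UMIs in 11 gene classes, with 1 line per preparation joining the small particle sample to its FASS sample. Every line of the respiratory chain and microglial panels slopes up towards FASS, every line of the synaptic vesicle, active zone, postsynaptic and cytoskeleton panels slopes down, and astrocyte and oligodendrocyte lines cross.

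Glial shares differed less. Astrocyte genes held 2.21% of FASS UMIs and 2.05% of small particle UMIs (adjusted p = 0.584), and oligodendrocyte genes 0.645% and 0.627% (adjusted p = 0.781). The microglial share was 0.871 ± 0.311% against 0.480 ± 0.0790%, higher in 6 of 6 preparations, but 1 gene carried it. *Cst3* (cystatin C, a secreted protease inhibitor that astrocytes also make) accounted for 87.4% of the microglial UMIs in FASS and 78.5% in small particles, and without it the shares were 0.114% and 0.103%.

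Of 8906 genes tested in the paired fit (edgeR quasi-likelihood test, preparation as a block, Benjamini-Hochberg adjusted p under 0.05), 67 were higher in FASS (0.752%) and 542 lower (6.09%), 6.84% in all. The median log2 fold change of all tested genes was -0.80, so most genes lay below 0. It was -0.80 also over the 2957 genes with at least 50 UMIs, -0.17 over the 375 genes with at least 300 UMIs (27 higher, 128 lower), -0.12 over the 105 with at least 1000, and -0.45 over all genes when the 1268 that had no UMI in FASS were set to their bound. Scaling by the trimmed mean of M values (TMM) moved the median to -1.18 with 17 higher and 1211 lower, and scaling by total UMIs moved it to -0.45 with 135 higher and 192 lower, so that 41.3% of calls were higher instead of 11%. Calls held under all 5 planned scalings for 17 higher and 171 lower genes, but these include the higher genes *Sftpc*, *Tas1r3*, *Tnnt2*, *Cdh17* and *Igkc*, whose FASS UMIs lay mostly in 1 or 2 libraries, and the lower gene *Tfap2a*, whose small particle UMIs lay mostly in 1 repeat. Without preparation 1 there were 29 higher and 261 lower genes, without preparation 4 there were 40 and 300, and without preparation 5 or 6 there were 44 and 39 higher genes. Changes are best read relative to these medians. In CPM, 64 genes had all 6 FASS samples above all 6 small particle samples (0.719%) and 667 had all 6 below (7.49%).

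The genes higher in FASS ranged from abundant housekeeping messages to rare ones. Of the 67, 48 had a UMI in all 6 FASS libraries and 31 were higher in all 6 preparations, while 11 had over 50% of their FASS UMIs in 1 library. Gene models known only by prediction made up 14 of them and processed pseudogenes 11, whose reads cannot be separated with confidence from those of their parent genes. Of the 542 lower genes, 358 were lower in all 6 preparations and 66 had no UMI in FASS.

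Ribosomal proteins made up 10 of the 67 higher genes. Their lists have median transcripts of 949 (large subunit) and 882.5 bases (small subunit). Of tested protein-coding genes of up to 1000 bases 4.86% were higher, and 9.29% of those in the third of genes with the most UMIs. Of 47 large subunit genes, 7 rose (among them *Rpl3*, *Rpl6*, *Rpl11*, *Rpl13*, *Rpl23a* and *Rpl35*) and 1 fell (*Rpl5*), or 14.9% and 2.13% against 0.752% and 6.09% of all tested genes, with a median log2 fold change of 0.31 and 40 of 47 above 0. Of 32 small subunit genes, 3 rose (*Rps2*, *Rps15* and *Rps19*) (9.38%) and none fell, with a median of 0.25 and 26 above 0, where 2266 of the 8906 tested genes were above 0. These medians were -0.13 and -0.20 under TMM scaling (0 higher, 2 and 3 lower), and 0.68 and 0.61 under total UMIs (12 and 7 higher), so the direction of the ribosomal group turned with the scaling.

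*Rps19*, a protein of the small ribosomal subunit (chromosome 7, 24884371 to 24889806, GRCm38), lay at 1530.0, 2320 and 3399 CPM (lowest, median, highest) in FASS and at 723, 921 and 1146 CPM in small particles. All FASS samples were above all small particle samples, with a log2 fold change of 0.94 (SE 0.22, adjusted p = 0.00101, higher in 6 of 6 preparations). Relative to library totals, the size factors were on average 0.33 larger in FASS than in small particles on the log2 scale, so fitted changes lie below log2 ratios of CPM. *Rpl23a*, a protein of the large subunit, ran from 662 to 2039 CPM in FASS (median 1256) and from 210.2 to 699 (median 569) in small particles. Its groups overlapped, since 1 of the 6 preparations was lower in FASS (log2 0.91, SE 0.24, adjusted p = 0.0051). *Rps15* was separated in full, at 1912 to 3791 CPM (median 3275) against 972 to 1758 (median 1408; log2 0.79, SE 0.21, adjusted p = 0.00695). Among other called members, *Rps2*, *Rpl11* and *Rpl13* had log2 fold changes of 0.95, 0.81 and 0.81. None of these 6 was called under TMM or TMMwsp scaling (a variant of TMM for tables with many zeros). Calls were also lost for *Rps2*, *Rps15*, *Rpl11* and *Rpl13* without preparation 1, for *Rpl11* and *Rpl13* without 4, and for *Rps15* and *Rpl13* without 6.

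Translation factors did not move together. Of 18, *Eif5a*, a factor for elongation and termination, rose (median 382 CPM against 136, log2 1.05, SE 0.34, adjusted p = 0.0363, higher in 6 of 6). *Eif4g2*, an initiation scaffold, fell (161 against 263 CPM, log2 -1.15, SE 0.37, adjusted p = 0.0304), as did *Tpt1*, the translationally controlled tumour protein (1051 against 1397 CPM, log2 -0.97, SE 0.24, adjusted p = 0.00246). Of the 18, 5.56% were higher and 11.1% lower, against 0.752% and 6.09% of all tested genes, and their median was -0.17. *Eif5a* was not called under TMM or TMMwsp, at a minimum of 1 UMI, with repeat 3 alone or without preparation 1, 3, 5 or 6. *Eif4g2* lost its call under 11 alternatives, among them total UMIs, DESeq2 with preparation, repeat 1 or 3 alone and leaving out preparation 1, 3 or 4, and *Tpt1* lost its call under total UMIs. *Oaz1*, ornithine decarboxylase antizyme and a brake on polyamine synthesis, rose to a median of 624 CPM (229 to 1271) from 212 (171 to 248), higher in 5 of 6 preparations (log2 1.27, SE 0.28, adjusted p = 0.00051).

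Respiratory chain messages made in the nucleus lay above the median of all genes. Of 37 complex I subunits, *Ndufs5* and *Ndufa3* rose, none fell and 29 were above 0 (median 0.34). The 5.41% that rose compare with 0.752% of all tested genes and 4.86% of protein-coding genes of up to 1000 bases. Of 25 subunits of complexes II to IV, *Cox5b* and *Cox6b1* rose (*Cox6b1* with an adjusted p of 0.0487, or 0.0695 without the preparation block), *Sdha* fell and 21 were above 0 (median 0.52). These are 8% higher and 4% lower, against 0.752% and 6.09% of all tested genes. Of 16 ATP synthase genes, none rose and *Atp5a1* fell (6.25%, against 6.09% of all tested genes, list median 0.10). Under TMM scaling the medians of complex I and of complexes II to IV were -0.09 and 0.07, and under total UMIs 0.69 and 0.87, each with 6 genes higher. None of *Ndufs5*, *Ndufa3* and *Cox6b1* was called under TMM or TMMwsp, *Ndufa3* was not called without preparation 1, 4 or 6, and *Cox6b1* not without 1, 4, 5 or 6.

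*Cox5b*, a subunit of cytochrome c oxidase (chromosome 1, 36691449 to 36693681), stood at 765, 1338 and 1912 CPM (lowest, median, highest) in FASS and at 328, 457 and 480.2 CPM in small particles. The groups did not overlap, and the log2 fold change was 1.20 (SE 0.24, adjusted p = 5.69e-05). *Ndufs5*, an accessory subunit of complex I, stood at 294, 509 and 659 CPM against 105, 168 and 270.1 CPM, again without overlap (log2 1.18, SE 0.30, adjusted p = 0.00388). In the opposite direction, *Sdha*, the catalytic subunit of succinate dehydrogenase, had a median of 65.5 CPM in FASS (0 to 148) and 207 in small particles, lower in 6 of 6 (log2 -1.55, SE 0.44, adjusted p = 0.0113). *Atp5a1*, the alpha subunit of ATP synthase, went from 394 to 221 CPM (log2 -1.07, SE 0.32, adjusted p = 0.0202, or 0.0556 without the block). The longest transcripts of *Sdha* and *Atp5a1* have 2900 and 2674 bases, against medians of 865 and 823.5 bases for their lists. Neither was called under total UMIs or with repeat 3 alone, and calls were also lost for *Sdha* without preparation 5 and for *Atp5a1* without 1, 3 or 6.

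Messages encoded by the mitochondrial genome did not follow the nuclear-encoded subunits. Of 14 tested genes, which include the 2 mitochondrial ribosomal RNAs, 5 fell (*mt-Nd3*, *mt-Nd5*, *mt-Nd6*, *mt-Co1* and *mt-Atp8*). None rose, and 35.7% were lower, against 6.09% of all tested genes. The list median was -0.58, against -0.80 for all tested genes. *mt-Nd3* and *mt-Nd5* lost their calls under total UMIs, and *mt-Nd3* also without preparation 1 or 2. *mt-Nd6*, a complex I subunit read from the opposite strand to its neighbours, had the lowest fold change of those examined, with a median of 186 CPM in FASS (0 to 414) and 974 in small particles (280.4 to 1902; log2 -2.50, SE 0.31, adjusted p = 1.92e-13, lower in 6 of 6). *mt-Nd5*, which overlaps it on the other strand, had medians of 3619 and 4792 CPM (log2 -0.81, SE 0.21, adjusted p = 0.00494, or 0.0883 without the block). *mt-Nd1* was at 11832 CPM in FASS and 9461 in small particles and was not called (log2 0.15, SE 0.21, adjusted p = 0.745). As a class, mitochondrially encoded genes held 16.8 ± 4.04% of FASS UMIs and 13.7 ± 2.46% of small particle UMIs, higher in 5 of 6 preparations (adjusted p = 0.191). This class includes the 2 ribosomal RNAs. Its 13 protein-coding members alone held 4.33 ± 1.88% of FASS UMIs and 4.36 ± 2.03% of small particle UMIs.

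Outside these complexes, *Pcsk1n*, *Tmsb10* and *Gapdh* rose. *Pcsk1n*, which encodes proSAAS, a neuropeptide precursor and inhibitor of a prohormone convertase (chromosome X, 7919822 to 7924410), lay at 1453, 1897 and 3024 CPM in FASS and at 449, 697 and 919.6 CPM in small particles. The groups did not overlap (log2 1.26, SE 0.23, adjusted p = 4.3e-06), and *Pcsk1n*, *Cox5b* and *Oaz1* were the 3 higher genes of those examined that were called under every alternative setting. *Tmsb10*, an actin-binding thymosin, was also separated in full (306 to 591 CPM against 52.6 to 168, log2 1.34, SE 0.33, adjusted p = 0.00204). *Gapdh*, a glycolytic enzyme, rose by 0.77 (SE 0.25, adjusted p = 0.0424, or 0.0608 without the block, higher in 5 of 6). It was the only called gene of 15 glycolytic genes (6.67%, against 0.752% higher of all tested genes). Its call was lost under TMM, TMMwsp and DESeq2 with preparation, with repeat 3 alone and without preparation 1, 4, 5 or 6. *Fth1*, the ferritin heavy chain, was among the 10 most abundant FASS features, with 6700 CPM in FASS and 5200 in small particles, and was not called (log2 0.07, SE 0.21, adjusted p = 0.891; -0.42 under TMM scaling). *Tmsb10* was the 1 called gene of 15 on the list of ferritin and other small abundant messages (6.67%, against 0.752% higher of all tested genes, list median -0.05). It was not called under TMM.

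Other lists gave few calls. Of 18 secretory pathway genes, *Canx*, the chaperone calnexin of the endoplasmic reticulum, fell (medians 191 and 366 CPM, log2 -1.23, SE 0.34, adjusted p = 0.00817), with a list median of -0.56. That is 5.56% of the list, against 6.09% of all tested genes, and *Canx* was not called under total UMIs, with repeat 3 alone or without preparation 1. Of 6 tested immediate early genes *Arc* was called, and of 6 nuclear RNAs *Rian*, both lower, with list medians of 0.20 and -0.31. Each is 16.7% of its list, against 6.09% of all tested genes. Of 19 tested genes that the study labels in plots of these same samples, 2 rose and 8 fell (median -0.85). These are 10.5% and 42.1%, against 0.752% and 6.09% of all tested genes. Since they were picked on these samples, that count is not independent evidence.

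**Figure D3:**
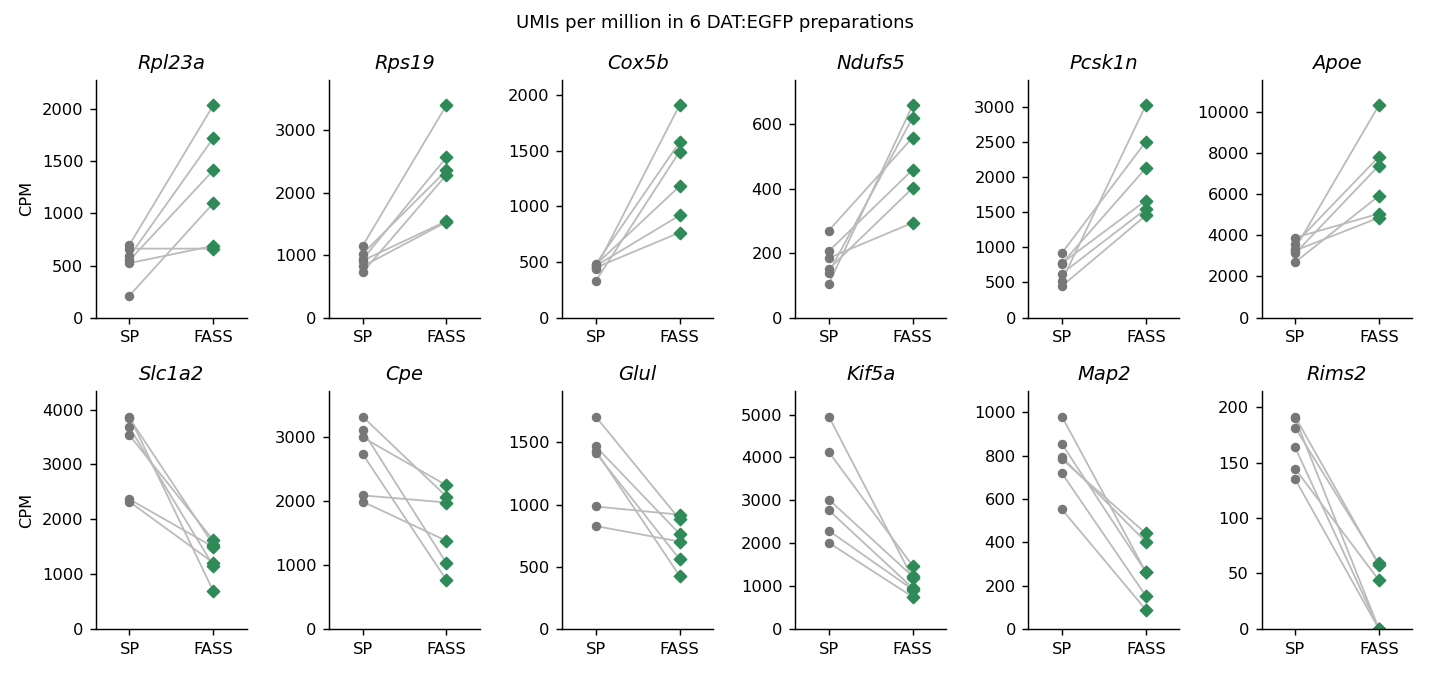
CPM of 12 genes in the 6 small particle and 6 FASS samples, with 1 point per sample and a line joining the 2 fractions of a preparation. *Rps19*, *Cox5b*, *Ndufs5*, *Pcsk1n* and *Apoe* show every FASS sample above every small particle sample, and *Slc1a2*, *Kif5a*, *Map2* and *Rims2* show the opposite.

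Astrocyte messages split. *Apoe*, the lipid carrier secreted by astrocytes (chromosome 7, 19696109 to 19699188), lay at 4853, 6653 and 10321 CPM in FASS and at 2688, 3301 and 3883 CPM in small particles. Its samples were separated in full, with a log2 fold change of 0.69 (SE 0.21, adjusted p = 0.0202). It was no longer called under TMM or TMMwsp scaling, without preparation 1, 4 or 6, or without the preparation block (adjusted p = 0.0555). *Slc1a2*, the main glutamate transporter of astrocytes (chromosome 2, 102658659 to 102790784), lay at 688, 1350.0 and 1618 CPM in FASS and at 2319, 3603 and 3873 CPM in small particles, separated in the other direction (log2 -1.68, SE 0.23, adjusted p = 3.94e-11). *Slc1a3*, the second glutamate transporter, had medians of 185 and 441 CPM (log2 -1.87, SE 0.33, adjusted p = 2.5e-06), and *Glul*, glutamine synthetase, 734 and 1426 CPM (log2 -1.23, SE 0.24, adjusted p = 4.16e-05).

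In all, 7 of 22 astrocyte genes fell (among them *Aqp4*, *Slc1a2*, *Slc1a3*, *Glul*, *Slc4a4* and *Cpe*) and 1 rose, or 31.8% and 4.55% against 6.09% and 0.752% of all tested genes, with a median of -0.37. *Cpe*, carboxypeptidase E, which trims neuropeptides and is made by neurons as well as astrocytes, had medians of 1678 and 2867 CPM and was lower in 6 of 6 (log2 -1.14, SE 0.22, adjusted p = 3.07e-05). Its call was lost under 2 of 23 alternatives, total UMIs and total UMIs without mitochondrially encoded genes. *Glul* lost its call under the latter. *Aldoc*, the astrocyte aldolase, and *Clu*, clusterin, were not called (log2 0.29 and -0.22, adjusted p = 0.44 and 0.634), and *Clu* turned to 0.12 under total UMIs. *Gfap*, the astrocyte filament protein, was sparse, with 16.4 and 84.3 CPM (adjusted p = 0.223).

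Among 15 oligodendrocyte genes, 1 was called, and it was lower (6.67%, against 6.09% of all tested genes). *Mbp*, myelin basic protein, whose message travels to the myelin sheath, was at 3176 and 2514 CPM and not called (log2 -0.14, SE 0.21, adjusted p = 0.771; 0.21 under total UMIs). Of 15 microglial genes 1 rose (6.67%, against 0.752% of all tested genes). It was *Cst3* (6912 against 3923 CPM, log2 0.61, SE 0.21, adjusted p = 0.0494, or 0.0743 without the preparation block, higher in 6 of 6). Its call was lost under 9 of 23 alternatives, among them TMM, TMMwsp, a minimum of 1 UMI, repeat 3 alone and leaving out preparation 1, 4, 5 or 6. The receptors *Csf1r* and *Cx3cr1*, which microglia carry, had log2 fold changes of -1.48 (SE 0.57) and -1.63 (SE 0.91) and were not called (adjusted p = 0.0975 and 0.308).

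Synaptic messages were lower or not called, and none rose. Of 17 active zone genes, which encode the scaffold where vesicles fuse, *Bsn*, *Pclo*, *Rims1*, *Rims2* and *Erc2* fell (29.4%, against 6.09% of all tested genes, median of the list -1.82). The list has a median transcript of 8366 bases. Of tested protein-coding genes over 8000 bases 18.3% were lower, and 37.8% of those in the third of genes with the most UMIs. *Rims2* (chromosome 15, 39198261 to 39684372) lay at 0, 22 and 59.1 CPM in FASS and at 135, 173 and 192 CPM in small particles. The groups did not overlap (log2 -2.88, SE 0.59, adjusted p = 9.36e-05). *Bsn*, the giant scaffold bassoon, had medians of 45.2 and 165 CPM and was lower in 6 of 6 (log2 -2.26, SE 0.57, adjusted p = 0.00302, not called without preparation 1), and *Pclo*, its relative piccolo, 123 and 281 CPM (log2 -1.82, SE 0.41, adjusted p = 0.000497). *Rims1* had 90 and 246 CPM and was lower in 5 of 6 (log2 -1.87, SE 0.43, adjusted p = 0.000827).

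Of 27 tested synaptic vesicle genes, 5 fell, among them *Syn1*, *Cplx2*, *Syp* and *Rab3c* (18.5%, against 6.09% of all tested genes). The list median was -0.64, against -0.80 for all genes. Under total UMIs none of the 5 was called. *Syn1* was not called without preparation 1, 4 or 6, nor *Rab3c* without 1, 2, 3, 4 or 5. *Syn1*, the vesicle phosphoprotein synapsin, had no UMI in FASS and 51 in small particles (adjusted p = 0.0228). With 3 UMIs over the FASS libraries as the bound, and counting error of the small particles left aside, it was at least 2.24-fold lower. *Cplx2*, a regulator of fusion, was better covered, with medians of 462 and 828 CPM, lower in 6 of 6 (log2 -1.18, SE 0.26, adjusted p = 0.000559).

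Of 22 postsynaptic and dendritic genes, 11 fell (*Camk2a*, *Dlg2*, *Dlg4*, *Arc*, *Map2*, *Ddn*, *Grin2b*, *Gria1*, *Gria2*, *Ppp1r9b* and *Psd3*), 50% of the list, with a median of -1.36. *Map2*, the dendritic microtubule protein (chromosome 1, 66175273 to 66442583), lay at 88.7, 263 and 441 CPM in FASS and at 552, 788 and 980.5 CPM in small particles, without overlap (log2 -2.0, SE 0.29, adjusted p = 3.93e-09). *Ppp1r9b*, the spine protein spinophilin, was separated as well (0 to 296 CPM against 342 to 577, log2 -1.76, SE 0.33, adjusted p = 1.29e-05). *Gria1*, an AMPA receptor subunit, had medians of 58.7 and 252 CPM (log2 -2.16, SE 0.47, adjusted p = 0.000389). *Arc*, an immediate early gene whose message is carried into dendrites, had no UMI in FASS and 56 in small particles (adjusted p = 0.021). It was at least 2.46-fold lower on the bound used for *Syn1*, and was not called under total UMIs or without preparation 1 or 4.

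Spiny projection neurons, the cells that dopamine terminals contact, gave 3 lower genes of 16 (18.8%, against 6.09% of all tested genes). The list median was -0.60, against -0.80 for all tested genes. Its share of UMIs was 0.339% in FASS and 0.410% in small particles, lower in 4 of 6 preparations (adjusted p = 0.191, exact paired permutation test). *Adcy5*, the striatal adenylyl cyclase, had medians of 192 and 391 CPM (log2 -1.36, SE 0.34, adjusted p = 0.00234) and *Pde10a*, a phosphodiesterase, 325 and 493 CPM (log2 -1.0, SE 0.31, adjusted p = 0.0242, or 0.0936 without the block). Each was lower in 5 of 6 preparations, and no gene of the list was called under total UMIs. Neither was called without preparation 1, nor *Pde10a* without 4 or 6. *Drd2*, the D2 dopamine receptor, had no UMI in FASS and 30 in small particles, and was not called (adjusted p = 0.0895, or 0.0499 without the block). Its 30.1 CPM over the small particles lay near the 22.9 CPM that a count of 0 in FASS allows. None of 7 tested interneuron genes was called (median -0.44), nor any of the 4 tested genes of cortical glutamatergic neurons. Of those 4, *Nrgn*, a calmodulin-binding postsynaptic protein, had medians of 681 and 367 CPM (log2 0.56, SE 0.27, adjusted p = 0.218) and the neuropeptide *Cck* 226 and 81.9 CPM (log2 0.60, SE 0.40, adjusted p = 0.408).

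Cytoskeletal and motor messages fell in 13 of 31 cases (41.9%, against 6.09% of all tested genes), with none called higher. The list median was -0.82, against -0.80 for all tested genes, and 9 of the 31 lay above 0. Among those that fell were *Map1a*, *Map1b*, *Sptan1*, *Sptbn1*, *Ank2*, *Dync1h1*, *Kif1a*, *Kif5a*, *Kif5b*, *Kif5c*, *Dst* and *Macf1*. *Kif5a*, a heavy chain of the kinesin that carries cargo along axons (chromosome 10, 127225696 to 127263348), lay at 747, 1068 and 1471 CPM in FASS and at 2010.1, 2892 and 4953 CPM in small particles. Its samples did not overlap (log2 -1.88, SE 0.23, adjusted p = 2.21e-13). *Sptbn1*, beta-spectrin of the membrane skeleton, was separated too (medians 229.6 and 711 CPM, log2 -1.97, SE 0.30, adjusted p = 1.9e-08), and *Dync1h1*, the dynein heavy chain that moves cargo back to the cell body, had medians of 95.7 and 408 CPM (log2 -2.56, SE 0.40, adjusted p = 2.66e-08). Of 10 ion pump and transporter genes, 5 fell (50%, against 6.09% of all tested genes), among them *Atp2a2*, *Atp2b2* and *Slc12a5*. The list median was -1.18, and none was called under total UMIs. Calls were also lost for *Slc12a5* and *Atp2a2* without preparation 1, for *Atp2b2* without 5, and for *Atp2a2* and *Atp2b2* without 6. *Slc12a5*, the neuronal chloride exporter, had medians of 38.4 and 173 CPM (log2 -2.14, SE 0.54, adjusted p = 0.00333).

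Features that match structural RNA had some of the smallest p-values. *Rn18s-rs5* and the overlapping model *Gm42418*, which hold 18S ribosomal RNA sequence on chromosome 17, gave 0.714 ± 0.287% of FASS UMIs and 5.72 ± 0.393% of small particle UMIs (SD, n = 6), 8.01-fold lower in FASS. *Gm42418* lies outside the rule for named genes and was chosen after its values were seen. *Rn18s-rs5* alone stood at 756 to 3060.0 CPM against 20473 to 24717 CPM (log2 -4.20, SE 0.25, adjusted p = 4.14e-57), and *Lars2*, a mitochondrial leucyl-tRNA synthetase gene, at 362 to 1377 against 8040.2 to 10224 CPM (log2 -3.98, SE 0.25, adjusted p = 2.33e-52). *Lars2* was among the features left out of the total in the scaling without ribosomal and signal recognition particle RNA. Whether its UMIs come from its own message was not tested. The 7SL RNA of the signal recognition particle was 5.76-fold lower. *Kcns2*, a modulatory potassium channel subunit, *Hsd17b11*, a dehydrogenase of lipid droplets, and *Ddhd1*, a phospholipase, were lower in 6 of 6 preparations without overlap, by log2 -2.52 (SE 0.23), -2.08 (SE 0.22) and -2.83 (SE 0.31; adjusted p = 1.7e-23, 6.79e-18 and 8.97e-17). *Rian*, a nuclear non-coding RNA, fell from a median of 232 to 45.2 CPM (log2 -2.59, SE 0.50, adjusted p = 2.92e-05).

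Part of the higher calls rested on single libraries. *Sftpc*, the lung surfactant protein C, had 41 and 40 UMIs in FASS preparations 3 and 6, 1 in preparation 5 and none in the others, against 0 to 77 UMIs in small particle samples (log2 2.48, adjusted p = 8.81e-07). It was higher in FASS in 3 preparations and lower in 3. The taste receptor gene *Tas1r3* had 18 UMIs and the cadherin gene *Cdh17* 12, all in FASS preparation 3. *Tnnt2*, cardiac troponin T, had 14 of its 16 FASS UMIs in preparation 2, and *Igkc*, an immunoglobulin light chain constant region, all 13 in preparation 6. These 5 genes were called (adjusted p of 8.81e-07 to 0.000783), but the replicates did not share the signal. DESeq2 with preparation called none of them, and *Sftpc* was not called without preparation 3 or 6.

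Fold changes were ordered by transcript length. For the 8249 tested protein-coding genes, the 432 with a longest annotated transcript of up to 1000 bases had a median log2 fold change of 0.41, with 21 higher and 0 lower. The median was 0.00 above this and up to 2000 bases (1338 genes, 20 higher, 11 lower), -0.57 at up to 3000 (1455 genes, 3 higher, 41 lower) and -1.02 at up to 5000 (2712 genes, 5 higher, 131 lower). It was -1.43 at up to 8000 bases (1609 genes, 1 higher, 179 lower) and -1.59 above 8000 (703 genes, 0 higher, 129 lower). With genes at 0 in FASS set to their bound, the 6 medians ran from 0.42 to -1.27. In the third of genes with the most UMIs the medians ran in the same order, from 0.41 to -1.60. In the third with the fewest, with genes at 0 set to their bound, they ran from 0.36 to -0.10.

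**Figure D4:**
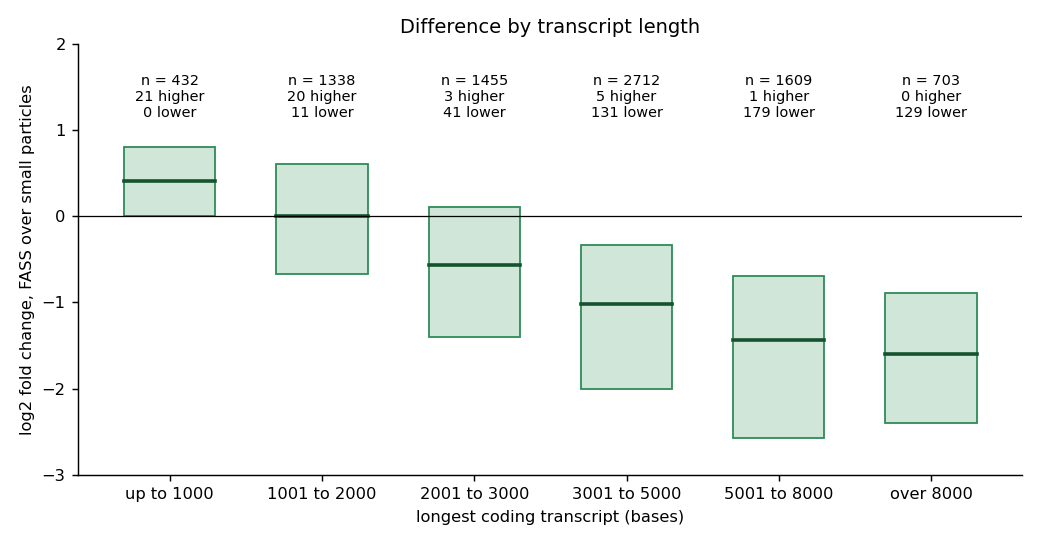
Fitted log2 fold change, FASS minus small particles, of 8249 protein-coding genes in 6 classes of transcript length, as boxes of the quartiles with the median, and the number of genes, higher and lower above each. The median goes from 0.41 at up to 1000 bases to -1.59 above 8000 bases.

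The same order was seen within preparations. Across 319 protein-coding genes with at least 300 UMIs, Spearman's rho between length and the fitted change was -0.74, and in preparations 1 to 6 taken alone it was -0.72, -0.39, -0.45, -0.73, -0.64 and -0.66. These are correlations across genes, which are not independent replicates and share the library and its depth. Between technical repeats of 1 small particle sample rho was -0.27 to 0.29, between small particle samples of different preparations -0.46 to 0.40, and between FASS samples of different preparations -0.62 to 0.48. The counted reads come from the 3′ ends of transcripts. RNA integrity was not measured in these files.

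The gene lists also differed in transcript length. The median transcript was 949 bases for large and 882.5 for small ribosomal subunit genes, and 8366 bases for active zone, 6138 for postsynaptic and 5156 for ion pump genes, against 3586 over all tested genes. When each gene was compared with the median of its own length class, the list medians were 0.04 and -0.04 for the ribosomal subunits, -0.27 for the active zone, -0.01 for postsynaptic genes and -0.06 for ion pumps. Complex I genes lay 0.27 above their length classes, complexes II to IV 0.18 above, and cytoskeletal genes 0.37 above. The part of length in the change of any list was not tested.

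Sorts of VGlut1 terminals can be set beside the DAT:EGFP sorts. In striatum, 0 of 3977 tested genes were higher (0%) and 13 lower (0.327%), and in cortex 6 of 5728 were higher (0.105%) and 41 lower (0.716%), 0.821% in all, each from 3 preparations (edgeR quasi-likelihood; in striatum 92 genes were higher and 482 lower at an unadjusted p under 0.05). The medians of all tested genes were -0.80, -0.64 and -0.65 for DAT:EGFP, VGlut1 striatum and VGlut1 cortex. Large ribosomal subunit genes had medians of 0.31, 0.31 and 0.67, complex I genes 0.34, 0.30 and 0.63, active zone genes -1.82, -1.36 and -1.04, and postsynaptic genes -1.36, -1.22 and -0.99. Spearman's rho with transcript length was -0.74, -0.75 and -0.72, over 319, 318 and 318 genes.

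**Figure D5:**
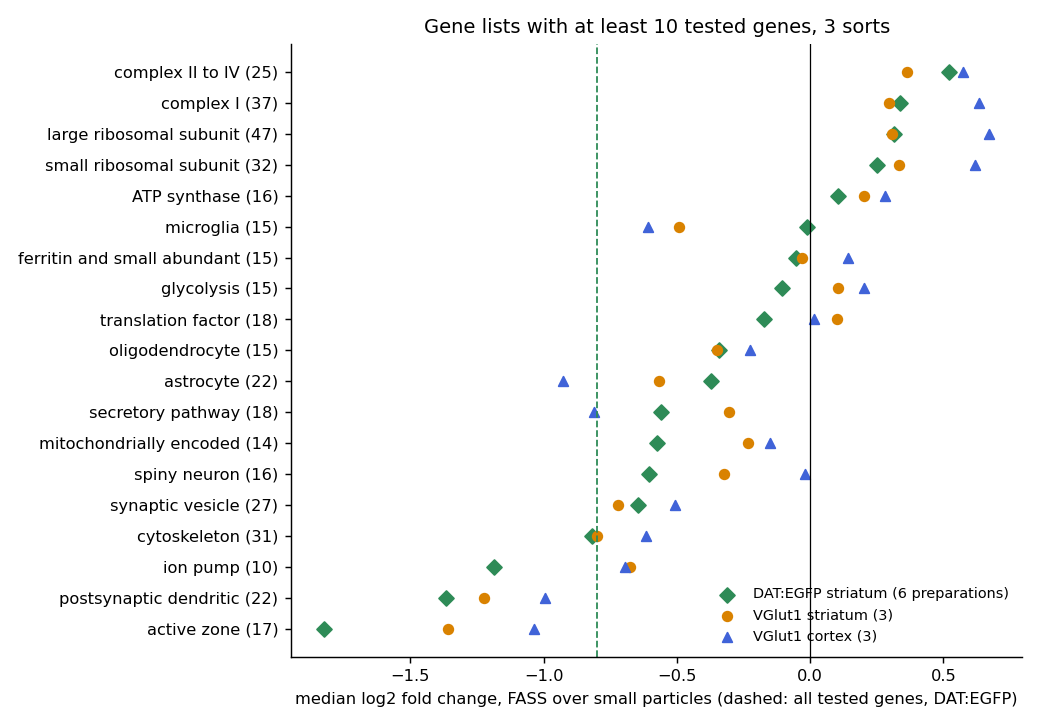
Median fitted log2 fold change, FASS minus small particles, of each gene list with at least 10 tested genes other than the genes the study labels, in DAT:EGFP striatum, VGlut1 striatum and VGlut1 cortex, with a dashed line at the median of all genes tested in DAT:EGFP (-0.80). Ribosomal and respiratory chain lists lie above 0 in all 3 sorts under the size factors used (the ribosomal and complex I lists of DAT:EGFP lie below 0 under TMM scaling), and active zone and postsynaptic lists lie near or below -1 in all 3.

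Single genes can be set side by side in the same way. *Pcsk1n* had log2 fold changes of 1.26 (SE 0.23) in DAT:EGFP, 1.01 (SE 0.24) in VGlut1 striatum and 1.61 (SE 0.28) in VGlut1 cortex, and *Slc1a2* -1.68 (SE 0.23), -1.51 (SE 0.24) and -1.95 (SE 0.26). *Apoe* had 0.69 (SE 0.21), 0.14 (SE 0.22) and 0.45 (SE 0.24), and *Kif5a* -1.88 (SE 0.23), -1.25 (SE 0.27) and -1.41 (SE 0.25).

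When the difference between the DAT:EGFP and VGlut1 striatal sorts was itself tested over 9840 genes, 1 gene passed (0.0102%), and it rested on 1 library. *Agxt*, a liver enzyme of glyoxylate metabolism, had a difference of 4.92 on the log2 scale (SE 0.83, adjusted p = 3.2e-05). It had 0 to 4 UMIs in each FASS library of the 9 striatal preparations and 1662 UMIs in 1 of the 3 small particle repeats of VGlut1 preparation 8, where the other repeats had 2 and 7. Without preparation 8 no gene passed, and *Agxt* had an adjusted p of 0.09. DESeq2 called no gene, and at an unadjusted p under 0.05 edgeR gave 162 genes. A gene that does not pass here is not shown to act alike in both sorts, given 3 VGlut1 preparations.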

How the data were processed

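Poly(A) RNA of sorted synaptosome samples was copied into 3′-end libraries with UMIs. The deposited table holds UMI counts per gene, which the authors made by trimming poly(A), aligning to GRCm38 with STAR under GENCODE annotation and collapsing UMIs within a Hamming distance of 1. Of this table, 48 libraries of FASS and small particle samples were mapped, and a deposited table of full-length libraries was not used here. Coordinates and transcript lengths were taken from GENCODE annotation of the same build.

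The 3 repeats of each small particle sample were summed. Preparation numbers came from the study's sample sheet, which lists both fractions of a preparation under 1 number. Deviations of same-numbered samples from their group means correlated by -0.009 to 0.124. With samples of other numbers the median correlations were -0.021 to 0.005. The small particle sample of the same number was the best match of the FASS sample in preparations 1 and 4 only. Whether the preparations came from separate mice is not given in the sources used here, so p-values measure the spread between these preparations, which may be technical. All genes that reached 10 UMIs across the 12 samples entered edgeR 4.0.16 (R 4.3.3) glmQLFit and glmQLFTest with preparation as a block and size factors from DESeq2 1.42.0, and p-values were adjusted by the method of Benjamini and Hochberg at 0.05. CPM values use total UMIs. Totals, class shares and genes at equal depth were compared by exact paired permutation of signs. Other settings were TMM, TMMwsp and total UMI scalings, other filters, DESeq2, single repeats and leaving out each preparation. The fits were tested on simulated data.

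Genes were named by rule: those the study labels, for each direction the 8 lowest p-values among calls above median abundance, up to 4 per list, the 10 most abundant in FASS, and calls in the difference between sorts. Other list members that passed are named without values, and some genes are not reported here. The members, the 28 gene lists and the rules were chosen with earlier results of these data known. No sequences are shown, since none carries a result here.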

Additional observations from a re-analysis of the deposited data

Results flagged for a closer look

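Among named genes, 1 sample stood apart from the other 5 of its group in 19 cases, in CPM. For normally distributed values chance flags about 1 in 20 groups of this size. A sample with 1 UMI is always flagged where the other 5 have none, so the 19 cases cannot be set against that rate. In FASS the high samples were *Th* (32.9, with 0 in the others), *Slc6a3* (73.5, with 0 in the others), *mt-Nd1* (22877), *Tas1r3* (1324), *Tnnt2* (1071), *Cdh17* (882), *Igkc* (747) and *Rn18s-rs5* (3060.0). The *Th* and *Slc6a3* values are 1 UMI each.

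In small particles the high samples were *Th* (14.0), *Tas1r3* (5.28), *Igkc* (5.28), *Kcns2* (28049), *Agxt* (263), *Drd2* (65.7), *Cck* (276) and *Tfap2a* (29607), and the low ones *Cox5b* (328), *Rpl23a* (210.2) and *Rian* (145). *Tfap2a*, a transcription factor gene, had 4204 UMIs in 1 repeat of preparation 4 and 26 and 8 in its other repeats, and was called lower in FASS (log2 -2.02, SE 0.32, adjusted p = 8.34e-08). That call was lost without preparation 4, with repeat 2 or 3 alone, under DESeq2 with preparation and with filterByExpr. It lies outside the rule for named genes and was chosen after its values were seen.

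The effect on *Agxt* differed between the DAT:EGFP and VGlut1 striatal sorts by 4.92 on the log2 scale in the test of the difference, and rested on 1 small particle repeat of VGlut1 preparation 8.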

How the results depend on the processing

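Of 75 called genes followed through 23 alternatives, none changed direction in those that tested it (19 to 23 for each gene), and 24 lower and 3 higher genes were called in every one that tested them. List members named without values were not followed. The total of 609 calls (67 higher, 542 lower) became 1228 (17, 1211) under TMM, 1007 (20, 987) under TMMwsp, 327 (135, 192) under total UMIs and 346 (175, 171) without mitochondrially encoded genes in the total. With scalings chosen after seeing the data it was 329 (101, 228) without ribosomal and signal recognition particle RNA, and 223 higher and 194 lower without *Dusp10*, *Unc93b1* and *Kcns2*. DESeq2 called 352 (44, 308) with preparation and 1318 (182, 1136) without. A minimum of 1 UMI gave 389 (340 lower), filterByExpr 203 (146 lower), repeat 1 alone 343 lower and repeat 3 alone 378 (315 lower). Without the preparation block there were 732 (71, 661), and the calls of *Cst3*, *Apoe*, *Cox6b1*, *Atp5a1*, *mt-Nd5*, *Pde10a*, *Drd2* and *Gapdh* changed, with no other call on a gene given with values.

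Leaving out 1 preparation gave 290 to 636 calls (29 to 82 higher, 261 to 554 lower). Preparations that moved a count by over 1.5 times were 1 (290; 29 higher, 261 lower), 4 (340; 40, 300), 5 (44 higher) and 6 (39 higher). The ratio of totals ran from 0.341 to 0.458, with p = 0.0625, the smallest that 5 pairs allow. The difference between sorts gave 3 genes at a minimum of 1 UMI, 0 at 50 UMIs, with filterByExpr, with DESeq2 or without the block, and 0 to 5 with 1 preparation left out.

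Without the pairing, genes at equal depth (-574) passed, as did shares, in percentage points, of active zone (-0.0990), cytoskeleton (-0.490), postsynaptic (-0.270), microglial (0.391) and respiratory chain genes (1.46). Shares passed outside mitochondrially encoded UMIs, and outside *Dusp10* and *Unc93b1*, for active zone (-0.111, -0.0999), cytoskeleton (-0.531, -0.454), ribosomal protein (5.17, 5.40), microglial (0.505, 0.510), respiratory chain (1.90, 1.95), postsynaptic (-0.302, -0.268) and synaptic vesicle genes (-0.0891, -0.0708). The oligodendrocyte share, 0.0186 points higher, turned to -0.000582 with repeat 1 alone, -0.0104 without preparation 4 and -0.0200 without 5, and ran up to 0.0647 with 1 preparation left out.

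Uncalled genes that turned, on the log2 scale, were *Agxt* (0.20 and 0.15 with repeats 2 and 3, 0.0392 without *Dusp10*, *Unc93b1* and *Kcns2*, 0.0211 without mitochondrial genes, -0.91 to 0.28 with 1 preparation left out), *Aldoc* (TMM -0.18, TMMwsp -0.0815), *Fth1* (-0.42, -0.31), *mt-Nd1* (-0.34, -0.24) and *Unc93b1* (-0.45, -0.35, all 12 preparations -0.0126, repeat 1 -0.10, -0.23 to 0.34 with 1 preparation left out). *Clu* (0.12, 0.22, 0.19, 0.0264) and *Mbp* (0.21, 0.32, 0.27, 0.11) turned under total UMIs, and under totals without *Dusp10*, *Unc93b1* and *Kcns2*, without mitochondrial genes and without structural RNA. These causes were not tested. With a median of 3 FASS UMIs per tested gene, moderate changes of sparse genes were not detectable.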
